A study of Mus musculus with 3 samples.

Results

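Apolipoproteins and lipid uptake genes were followed through the brain cells of control mice and of mice after ischemic or hemorrhagic stroke, as 8 of the 31053 genes of a single-cell RNA sequencing matrix. The genes were taken by symbol and comprised 4 secreted apolipoproteins (Apoe, Apoc1, Apod and Clu), the lipoprotein lipase Lpl, the lipoprotein receptor Lrp1, the fatty acid binding protein Fabp5 and the lipid droplet protein Plin2. Each symbol named 1 row of the matrix, and all 8 were detected. Brain tissue came from mice labelled C56BL6 and aged 10 weeks, with no transgene or deletion named in the labels. The 3 groups were healthy control mice, ischemic stroke mice with a suture occlusion of the middle cerebral artery, and hemorrhagic stroke mice with collagenase IV injected into the right striatum. Tissue of several mice entered 1 library for each condition, and the time between stroke and collection was not given for these libraries in the sources used here. The deposited matrix held the 3 libraries under barcode suffixes 1, 2 and 3 without a pairing of suffix and condition, so libraries are called 1, 2 and 3 here, no condition was compared with another, and no test across replicates was possible.

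Lipid in the brain travels in particles built on apolipoproteins. Apoe and Clu are secreted chiefly by astrocytes and, for Apoe, also by macrophages and activated microglia. Lipoprotein lipase frees fatty acids from such particles, Lrp1 and its relatives take the particles up, fatty acid binding proteins such as Fabp5 carry the fatty acids inside the cell, and perilipins such as Plin2 coat the droplets in which surplus lipid is stored. Apoe, Apoc1 and Lpl are known as genes of microglia that respond to damaged myelin, and Cst7, a cystatin that inhibits lysosomal proteases, is a common marker of that state.

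On the mm10 (GRCm38) genome, Apoe lies on the minus strand of chromosome 7 from 19696109 to 19699188, and Apoc1 lies on the same strand from 19689481 to 19692660, with 3448 bases between them. Apod lies on chromosome 16 from 31296192 to 31314808, Clu on chromosome 14 from 65968483 to 65981547, Lpl on chromosome 8 from 68880491 to 68907448, Lrp1 on chromosome 10 from 127538161 to 127621148, Fabp5 on chromosome 3 from 10012548 to 10016607, and Plin2 on chromosome 4 from 86648386 to 86670060. All 8 are annotated as protein-coding. RefSeq start-site windows on GRCm38.p6, which run from 250 bases before the start of transcription to 50 bases after it, were held for 4 of the 8 genes. Windows are printed for Apoe and Apod, a pair of apolipoproteins that stood on opposite sides of the comparison within microglia-like cells of the 3 libraries together, and for Plin2, the droplet gene that was highest in neutrophil-like cells. Each is written 5′ to 3′ on the minus strand with the letters of a searched motif in capitals, at chr7:19699139-19699438, chr16:31314759-31315058 and chr4:86670010-86670309.
Apoe: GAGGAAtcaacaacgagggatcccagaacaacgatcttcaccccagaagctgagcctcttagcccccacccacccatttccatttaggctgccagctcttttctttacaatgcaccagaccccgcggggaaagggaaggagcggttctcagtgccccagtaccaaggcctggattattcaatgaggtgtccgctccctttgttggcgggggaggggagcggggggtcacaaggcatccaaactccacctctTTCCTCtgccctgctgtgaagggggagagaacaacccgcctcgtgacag
Apod: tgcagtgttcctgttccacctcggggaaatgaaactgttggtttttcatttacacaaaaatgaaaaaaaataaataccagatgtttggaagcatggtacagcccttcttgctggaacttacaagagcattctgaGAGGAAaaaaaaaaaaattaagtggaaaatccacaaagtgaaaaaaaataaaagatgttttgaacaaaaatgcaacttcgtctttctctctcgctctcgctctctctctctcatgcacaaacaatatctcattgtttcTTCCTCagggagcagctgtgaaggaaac
Plin2: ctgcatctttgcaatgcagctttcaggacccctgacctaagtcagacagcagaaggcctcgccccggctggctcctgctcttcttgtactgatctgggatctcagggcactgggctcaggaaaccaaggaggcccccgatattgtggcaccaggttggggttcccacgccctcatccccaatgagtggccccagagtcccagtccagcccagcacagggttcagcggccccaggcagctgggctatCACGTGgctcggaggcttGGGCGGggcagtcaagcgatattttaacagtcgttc
The 5 short motifs named here were searched on both strands, and the same search over the 32851 windows of that length gave their background. GAGGAA, the core letters of many sites of the myeloid factor Spi1, stood at 2 places in the Apoe window and at 2 places in the Apod window, and 28.3% of all windows held it. CACGTG, the E-box bound by basic helix-loop-helix factors, stood once in the Plin2 window and in 7.15% of all windows. GGGCGG, the GC box, stood once in the Plin2 window, once in that of Lrp1 and in 35.7% of all windows. The TATA box TATAAA, present in 13.6% of all windows, and the AP-1 site TGANTCA, present in 7.81%, were not among the letters of the 4 windows. No matches overlapped. Apoe had 3 windows in the table, and the one nearest the annotated 5′ end of the gene was used.

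Of 35968 barcodes, 31982 had at least 1000 UMIs (unique molecular identifiers, each 1 captured RNA molecule) and at most 30% of them from mitochondrial genes. Libraries 1, 2 and 3 kept 8969, 13769 and 9244 barcodes with medians of 6389, 5801 and 6288 UMIs, and 90 barcode sequences occurred in more than 1 library. Classes were gated on marker UMIs, with none of the 8 genes among the markers, and are named "-like" because markers alone define them. Barcodes that passed 1 gate formed 19 classes, 1636 barcodes passed none, and 1908 barcodes (5.97%) passed several and were left out of the classes. Levels are CPM, the UMIs of a gene over all UMIs of a class on the usual scale. Intervals are exact 95% intervals (Poisson for CPM, binomial for ratios), and they cover counting error only. Class make-up differed between the libraries: 97.9% of the endothelial-like, 98.0% of the pericyte-like and 83.2% of the border-associated macrophage-like cells came from library 3, against 0.915% of the T cell-like cells.

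Apoe was highest in the macrophage lineage and in astrocytes. It stood at 61399 CPM (60953 to 61847) in the 185 border-associated macrophage-like cells, at 59035 CPM (58988 to 59081) in the 11528 microglia-like cells and at 30643 CPM (30316 to 30972) in the 294 astrocyte-like cells. Fibroblast-like cells followed at 12242 CPM and ependymal-like cells at 8579 CPM. The first pair in this order differed by a ratio of 1.04. In libraries 1 and 2 microglia-like cells held 71507 and 65510 CPM, but the 16 and 15 border-associated macrophage-like cells there were too few for a value in each library. With library 3 left out, microglia-like cells had 67641 CPM and border-associated macrophage-like cells 62543 CPM. In library 3 border-associated macrophage-like cells led with 61238 CPM while microglia-like cells held 1042 CPM. Astrocyte-like cells were steady by comparison, with 29192, 29048 and 31627 CPM in the 3 libraries. Microglia-like cells contributed 88.5% of all Apoe UMIs, which made up 2.83% of every UMI kept.

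Apoc1, the small apolipoprotein next to Apoe on chromosome 7, was concentrated in microglia-like cells. Its level was 364 CPM (360 to 368) there against 64.2 CPM (50.6 to 80.4) in border-associated macrophage-like cells, a ratio of 5.67, and microglia-like cells held 92.1% of its UMIs. The level in microglia-like cells was 679 CPM in library 1, 274 CPM in library 2 and 0.748 CPM in library 3. Border-associated macrophage-like cells of library 3 still held 61.7 CPM of Apoc1. Apoe and Apoc1 were thus both lower in the microglia-like cells of library 3 than in its border-associated macrophage-like cells.

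**Figure D1:**
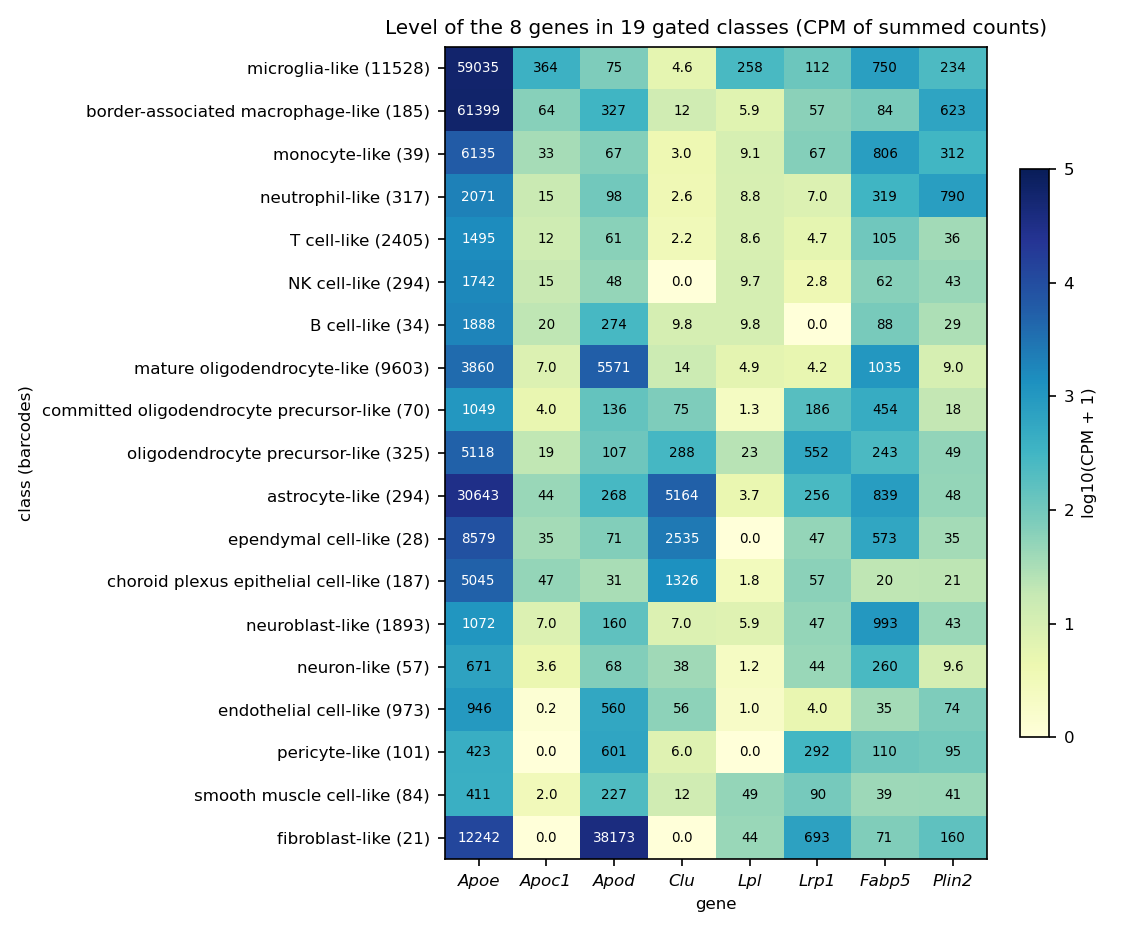
Heat map of the 8 genes (columns) in the 19 gated classes (rows, number of barcodes in parentheses), with the CPM of the summed counts written in each cell and coloured as log10(CPM + 1). Apoe is 59035 CPM in the microglia-like row, 61399 CPM in the border-associated macrophage-like row and 411 CPM or more in every row, Apod and Lrp1 peak in the 21 fibroblast-like barcodes, and Apoc1 and Lpl stand out in the microglia-like row.

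Apod, a lipocalin that binds arachidonic acid and steroids, had a different distribution. Fibroblast-like cells reached 38173 CPM (37040 to 39332), but only 21 barcodes formed that class. Mature oligodendrocyte-like cells followed at 5571 CPM (5553 to 5590), were alike across the libraries at 5084, 5575 and 5881 CPM, and held 86.1% of the Apod UMIs. Every other class was at 601 CPM or less. Clu (clusterin), a chaperone and apolipoprotein of high-density particles, was an astrocyte and ventricular lining gene: 5164 CPM (5031 to 5301) in astrocyte-like, 2535 CPM in ependymal-like and 1326 CPM in choroid plexus epithelial-like cells. In astrocyte-like cells Clu was 6864 CPM in library 3 and 2546 and 2477 CPM in libraries 1 and 2, while Apoe in the same cells differed little. Microglia-like cells held Clu at 4.61 CPM.

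Lpl followed Apoc1 into microglia-like cells. Its level was 258 CPM (255 to 261), the next class, smooth muscle-like cells, held 48.9 CPM (31.6 to 72.2), and microglia-like cells contributed 91.6% of Lpl UMIs. Microglia-like cells of libraries 1, 2 and 3 stood at 282, 302 and 11.4 CPM, and in library 3 smooth muscle-like cells led with 54.8 CPM. Border-associated macrophage-like cells, among the highest in Apoe, had Lpl at 5.92 CPM (2.38 to 12.2). Lrp1, the large endocytic receptor for Apoe-bearing particles, was led by fibroblast-like cells at 693 CPM (548 to 865) and oligodendrocyte precursor-like cells at 552 CPM (519 to 586), whose intervals overlapped. Pericyte-like and astrocyte-like cells came next at 292 and 256 CPM, and mature oligodendrocyte-like cells had 4.23 CPM. Along the oligodendrocyte lineage Lrp1 went from 552 CPM in precursor-like cells through 186 CPM in committed precursor-like cells to 4.23 CPM in mature cells, and Apod went from 107 through 136 to 5571 CPM. The precursor-like level of Lrp1 held in each library, at 538, 519 and 675 CPM. Microglia-like cells had Lrp1 at 112 CPM and, as the class with the most cells, contributed 70.2% of its UMIs.

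Fabp5 was spread over several classes. It was highest in mature oligodendrocyte-like cells at 1035 CPM (1027 to 1043), followed by neuroblast-like cells at 993 CPM (974 to 1012), astrocyte-like cells at 839 CPM, monocyte-like cells at 806 CPM and microglia-like cells at 750 CPM, with 35.2 CPM in endothelial-like cells. The order of these leaders depended on the library: mature oligodendrocyte-like cells had 1368, 1274 and 625 CPM in libraries 1, 2 and 3, neuroblast-like cells had 1057, 1001 and 933 CPM, and microglia-like cells had 704, 939 and 42.7 CPM. Only counts were used here, so whether reads of Fabp5 also matched related sequences elsewhere in the genome was not examined. Plin2 was highest in myeloid classes: 790 CPM (739 to 843) in neutrophil-like, 623 CPM (579 to 669) in border-associated macrophage-like, 312 CPM in monocyte-like and 234 CPM in microglia-like cells. In neutrophil-like cells it stood at 869, 614 and 554 CPM in the 3 libraries, in library 3 border-associated macrophage-like cells were above them at 638 CPM, and in mature oligodendrocyte-like cells it was 8.99 CPM.

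For Apoc1, Apod, Clu and Lpl, 4 of the 8 genes, the highest class was at least 2-fold above the next on CPM + 10. Over all 8808 genes with 50 CPM or more in a class, the same held for 27.9%. The count rests on the 3 libraries as a pool: Clu in astrocyte-like over choroid plexus epithelial-like cells was under 2-fold in libraries 1 and 2, the Apod call rests on 21 fibroblast-like cells, and in library 3 other classes than microglia-like cells led in Lpl and Apoc1. As a description over the 19 classes, the genes whose log2(CPM + 10) ran most like each of the 8 were Hexa (Pearson's r = 0.84), Abca1 (0.82) and Lair1 (0.81) for Apoe, Naglu, Ifnb1 and Siglech (0.84 to 0.86) for Apoc1, Abca8a, Il33 and Ctsk (0.89 to 0.90) for Apod, and Mt3, Sfrp1 and Nat8f1 (0.91 to 0.95) for Clu. They were Tmem119, Lag3 and Apoc4 (0.73 to 0.82) for Lpl, P3h3, Pid1 and Rab34 (0.86 to 0.88) for Lrp1, Cmip, Zfp608 and Arhgap39 (0.69 to 0.72) for Fabp5, and Cxcl2, Ftl1 and Ifi204 (0.89 to 0.90) for Plin2. The classes share 3 libraries and their free RNA, and they are no independent samples.

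Low Apoe levels were found in classes that should lack the gene. T cell-like cells had Apoe at 1495 CPM, with a UMI in 99.3% of cells at a median depth of 4742 UMIs, against 94.8% of microglia-like cells at 7388 UMIs. After each cell was thinned to 1000 UMIs the shares were 74.8% and 84.4%. These shares mix the libraries, as library 3 gave 17.2% of the microglia-like and 0.915% of the T cell-like cells. In the microglia-like cells grouped by Cst7 further on, 99.8% or more had an Apoe UMI in each group of libraries 1 and 2. In library 3 it was 74.4% of those without Cst7. T cell-like cells held 1320 and 1650 CPM of Apoe in libraries 1 and 2 and 135 CPM in library 3. In libraries 1 and 2 the ratio of Apoe to C1q UMIs (C1qa, C1qb and C1qc, the microglial complement genes) was 2.87 and 2.38 in microglia-like cells and 3.42 and 2.67 in T cell-like cells. In library 3 these ratios were 0.0426 in microglia-like cells and 0.933 in the 22 T cell-like cells. The part of free RNA in the Apoe of T cell-like cells was not tested. Mature oligodendrocyte-like cells had 13.2, 11.5 and 10.8 Apoe UMIs for each C1q UMI in libraries 1, 2 and 3 and astrocyte-like cells had 32.7, 38.7 and 101, both above the ratio found in T cell-like cells. Other classes of library 3 also varied, with 8.10 in the 953 endothelial-like, 1.97 in pericyte-like and 1.92 in neuroblast-like cells. The part of free RNA in the Apoe of these classes was not tested. Apod was higher in library 3 in classes other than oligodendrocytes: microglia-like, neuroblast-like and T cell-like cells had 296, 332 and 423 CPM there, the last in 22 cells, while in libraries 1 and 2 the same classes had between 35.8 and 66.1 CPM. The part of free RNA in these Apod levels was not tested.

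Within the microglia the levels were set against Cst7. By the rule used here, barcodes with C1qa, C1qb and C1qc at 0.5% of UMIs or more were taken as microglia-like, 12800 in all, of which 5759 had no Cst7 UMI and 5853 had at least 2. Among microglial markers not used in the gate, Csf1r, Cx3cr1, P2ry12 and Tmem119 were present in 74.3% or more of the 11528 cells of the microglia-like class and Sall1 in 31.3%. All of these were lower in the cells with Cst7. P2ry12 was 692 CPM without and 171 CPM with Cst7 in library 1, and 758 and 159 CPM in library 2. Tmem119 was 591 and 172 CPM in library 1 and 552 and 155 CPM in library 2. Of the rule's cells in library 3, 97.1% had Cst7 at 0 and 9 cells had 2 UMIs or more, against 38.9% and 27.9% at 0 in libraries 1 and 2. The Cst7 groups of the 3 libraries together therefore cannot be told apart from the libraries, and the values that follow are given within libraries 1 and 2. Cells with Cst7 were also deeper: their medians were 12665 and 11443 UMIs in libraries 1 and 2, against 4964 and 4682 UMIs in cells without it. Depth and Cst7 UMIs cannot be told apart in these groups, and values by depth are given further on.

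Apoe, Apoc1 and Lpl were higher with Cst7 in both libraries. Apoe was 26942 CPM without Cst7 and 85491 CPM with it in library 1, a ratio of 3.17 (3.16 to 3.19), and 22897 and 72872 CPM in library 2, a ratio of 3.18 (3.17 to 3.20). Apoc1 went from 112 to 861 CPM in library 1, 7.70-fold (7.20 to 8.24), and from 52.0 to 320 CPM in library 2, 6.15-fold (5.62 to 6.73). Lpl went from 65.3 to 364 CPM in library 1, 5.58-fold (5.10 to 6.10), and from 53.9 to 351 CPM in library 2, 6.51-fold (5.97 to 7.12). The cells of library 3 without Cst7 were below both groups of the other libraries in all 3 genes, at 5074 CPM for Apoe, 4.41 CPM for Apoc1 and 9.57 CPM for Lpl. In library 3 the border-associated macrophage gate was also passed by 6.92% of these cells and the oligodendrocyte gate by 13.4%, and without barcodes that passed another gate Apoe was 1039 CPM in library 3, against 27549 and 24249 CPM in libraries 1 and 2.

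Fabp5 and Plin2 differed less between the Cst7 groups. Fabp5 went from 317 to 867 CPM in library 1 (2.73-fold, 2.62 to 2.85) and from 526 to 1016 CPM in library 2 (1.93-fold, 1.88 to 1.99), and it was 85.5 CPM in the cells of library 3 without Cst7. Plin2 went from 146 to 254 CPM in library 1 (1.74-fold, 1.63 to 1.85) and from 177 to 288 CPM in library 2 (1.63-fold, 1.55 to 1.71). Lrp1 stood at 112 and 104 CPM in library 1 (ratio 0.93, 0.86 to 0.9999) and at 96.0 and 96.4 CPM in library 2 (interval of the ratio 0.94 to 1.08). The cells of library 3 without Cst7 had more Lrp1, 152 CPM. Lrp1 thus differed little between groups whose Apoe differed over 3-fold. Clu was below 10 CPM in each group of libraries 1 and 2 and was not compared there.

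**Figure D2:**
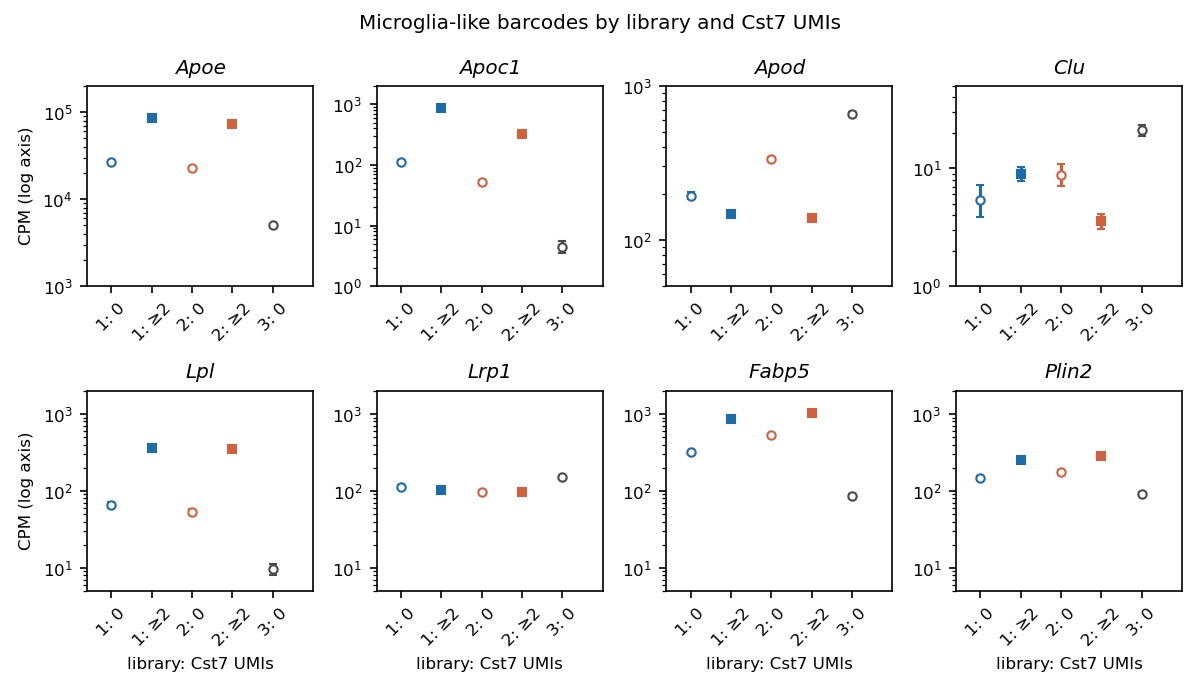
Level of each of the 8 genes in microglia-like barcodes (CPM on a log axis) by library and Cst7 UMIs, with open circles for Cst7 at 0, filled squares for Cst7 at 2 or more, and bars for exact 95% Poisson intervals, which are often smaller than the points. Filled squares lie above open circles in both libraries for Apoe, Apoc1, Lpl, Fabp5 and Plin2 and close to them for Lrp1, and library 3 has only its Cst7 at 0 group because 9 of its cells had more.

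A gene is counted as higher or lower where CPM + 10 differed at least 2-fold. In library 1, 4 of the 7 genes with 10 CPM or more in a group were higher (Apoe, Apoc1, Lpl and Fabp5) and none lower, against 0.97% higher and 2.9% lower among all genes. In library 2, 3 of 7 were higher (Apoe, Apoc1 and Lpl) and 1 lower (Apod), against 1.14% and 3.38%. With the 3 libraries together 5 of 8 were higher, Plin2 included, and Apod was lower, against 1.56% and 5.97%, and Apoc1 and Lpl then ranked 2 and 3 by ratio among 7622 genes. The median log2 ratio over all genes was -0.21 in library 1, -0.30 in library 2 and -0.37 together, and every ratio here is read against that shift.

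Apod is the member in which markers of another cell type moved with the result. It was 194 and 146 CPM without and with Cst7 in library 1, 335 and 139 CPM in library 2, and 661 CPM in the cells of library 3 without Cst7. Over the 3 libraries all 8 mature oligodendrocyte markers were lower in the cells with Cst7, for example Mag at 76.7 against 188 CPM. In library 1 Mag was 94.6 and 99.3 CPM, and in library 2 67.3 and 158 CPM, with and without Cst7. Barcodes that also passed the oligodendrocyte gate made up 2.72% of the cells without Cst7 and 4.82% of those with it in library 1, 5.09% and 4.18% in library 2, and 13.4% of the cells without Cst7 in library 3. Without barcodes that passed another gate, Apod was 54.1 and 28.7 CPM in library 1 and 73.6 and 38.0 CPM in library 2, without and with Cst7. With the same barcodes matched on total UMIs the levels were 41.9 and 40.7 CPM in library 1 and 60.9 and 46.3 CPM in library 2. The part of oligodendrocyte RNA in the Apod difference was not tested further.

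Cells on either side of the thresholds were also described. Over the 3 libraries together, cells with C1q at 0.5 to 1% of UMIs had 20984 CPM of Apoe and 1920 CPM of Apod. Of these cells 35.9% passed the oligodendrocyte gate, while cells at 1% or more had 57515 and 168 CPM and 4.02% passed it. Just outside, at 0.25 to 0.5%, Apoe was 15814 CPM and Apod 1626 CPM. The libraries differ in both genes, and the share of each library in these bands was not examined, so the bands may also differ by library. Between the Cst7 groups, cells with 1 Cst7 UMI had 43886 and 38800 CPM of Apoe in libraries 1 and 2, cells with 2 to 4 had 74980 and 58197 CPM, and cells with 10 or more had 88428 and 75946 CPM. Lpl followed the same order, from 115 and 113 CPM at 1 UMI through 258 and 178 CPM at 2 to 4 to 393 and 400 CPM at 10 or more. Apoc1 in library 1 was 466 CPM at 1 UMI, 1046 CPM at 5 to 9 and 852 CPM at 10 or more, so its highest group was not the one with the most Cst7.

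The summed level of Apoe hid a wide spread over cells. Without other gates, the median cell with Cst7 at 0 spent 0.404% of its UMIs on Apoe in library 1 and 0.299% in library 2, and the median cell with Cst7 at 2 or more spent 7.13% and 6.02%. The cells without Cst7 reached from a 10th percentile of 0.0937% to a 90th percentile of 6.24% in library 1 and from 0.101% to 5.01% in library 2. Of these cells 30.5% and 27.6% had 1% of their UMIs or more in Apoe, against 93.9% and 94.5% of the cells with Cst7. In library 3 the median was 0.0199%, 84.7% of the cells were under 0.1%, and 1.15% of them had 1% or more. The median cell held 1 Apoe UMI in library 3, 15 and 11 UMIs without Cst7 in libraries 1 and 2, and 782 and 630 UMIs with it.

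**Figure D3:**
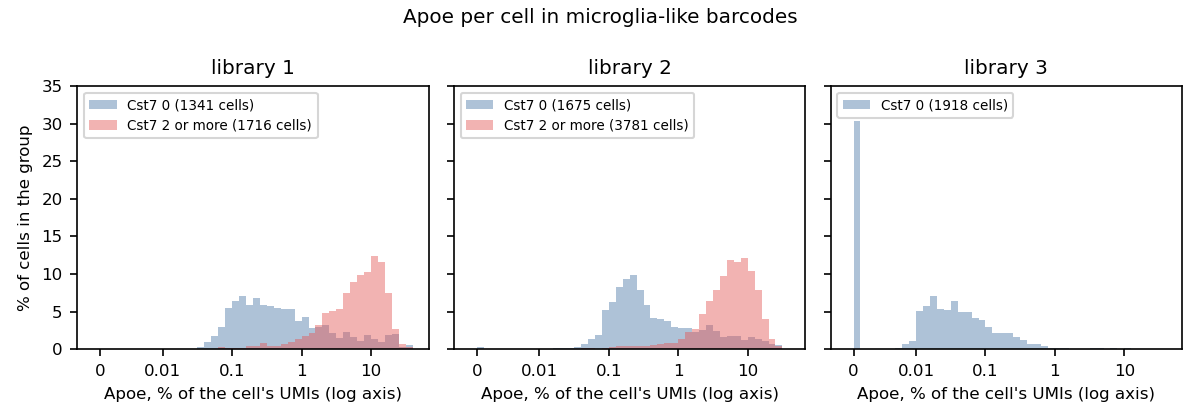
Distribution of Apoe over microglia-like barcodes that passed no other gate, as the percent of each cell's UMIs (log axis, cells with no Apoe UMI in the bar at 0), in blue for Cst7 at 0 and red for Cst7 at 2 or more. Medians were 0.404% and 7.13% in library 1, 0.299% and 6.02% in library 2 and 0.0199% in library 3, and the blue distributions of libraries 1 and 2 have a tail that reaches the red ones.

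Cells with Cst7 were deeper, and for some of these genes the order of the 2 Cst7 groups differed between depth bins. Barcodes that passed another gate are left out of the bins that follow unless they are named. Below 12000 UMIs, Apoe was higher with Cst7 in each of the 5 depth bins of libraries 1 and 2. From 4000 to under 6000 UMIs it was 9722 CPM (9583 to 9863) in 388 cells without Cst7 and 75203 CPM (74515 to 75896) in the cells with it in library 1, and 7812 and 55796 CPM in library 2. At 12000 UMIs or more, 53 cells of library 1 and 41 cells of library 2 had no Cst7, and their Apoe was 100379 and 108923 CPM, above the 95969 and 81531 CPM of the cells with Cst7. With all barcodes of the rule the order was the other way, at 80261 CPM in 72 cells without and 91968 CPM with Cst7 in library 1 and at 63585 CPM in 82 cells without and 79316 CPM with it in library 2. Fabp5 did likewise: from 4000 to under 6000 UMIs it was 71.5 against 456 CPM in library 1, and at 12000 or more 1619 against 1013 CPM, with 2851 against 1216 CPM in library 2, where it was already the higher one from 8000 to under 12000 UMIs (1080 against 675 CPM). Plin2 in the deepest bin was 293 against 278 CPM in library 1 and 628 against 307 CPM in library 2, without and with Cst7, and with all barcodes it was 257 against 267 CPM and 370 against 299 CPM. Fabp5 in that bin was higher without Cst7 in both sets, at 1398 against 997 CPM and 1882 against 1196 CPM with all barcodes.

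Lpl and Apoc1 kept their order in the deepest bin. Lpl was 102 CPM (81.6 to 126) without and 406 CPM (396 to 415) with Cst7 in library 1, and 125 and 417 CPM in library 2, and it was higher with Cst7 in all 12 pairs of library and bin, with intervals apart. Apoc1 was 602 and 1024 CPM in library 1 and 216 and 387 CPM in library 2, and only under 2000 UMIs did its intervals overlap. When bins were given the weights of the cells with Cst7, all barcodes included, the ratios on CPM + 10 were 4.22 and 4.49 for Lpl, 2.61 and 3.25 for Apoc1, 1.52 and 1.69 for Apoe, 1.18 and 1.08 for Plin2, 0.92 and 0.78 for Fabp5 and 0.82 and 1.03 for Lrp1 in libraries 1 and 2. Lpl and Apoc1 then stayed at least 2-fold higher in both libraries, Apod was at least 2-fold lower in both at 0.33 and 0.19, and Fabp5 turned below 1. Without barcodes that passed another gate they were 3.86 and 3.49 for Lpl, 2.11 and 2.10 for Apoc1, 1.31 and 1.12 for Apoe, 1.13 and 0.76 for Plin2, 0.98 and 0.79 for Apod, 0.76 and 0.91 for Lrp1 and 0.82 and 0.56 for Fabp5. Plin2 thus turned below 1 in library 2, and the Apod difference was no longer past 2-fold in either library. The deepest bin then rests on 53 and 41 cells without Cst7. Its weight came from 919 of the 1716 cells with Cst7 in library 1 and from 1723 of the 3781 in library 2. These weighted ratios therefore depend strongly on few cells, and below that bin Apoe was higher with Cst7 in every bin of both libraries.

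**Figure D4:**
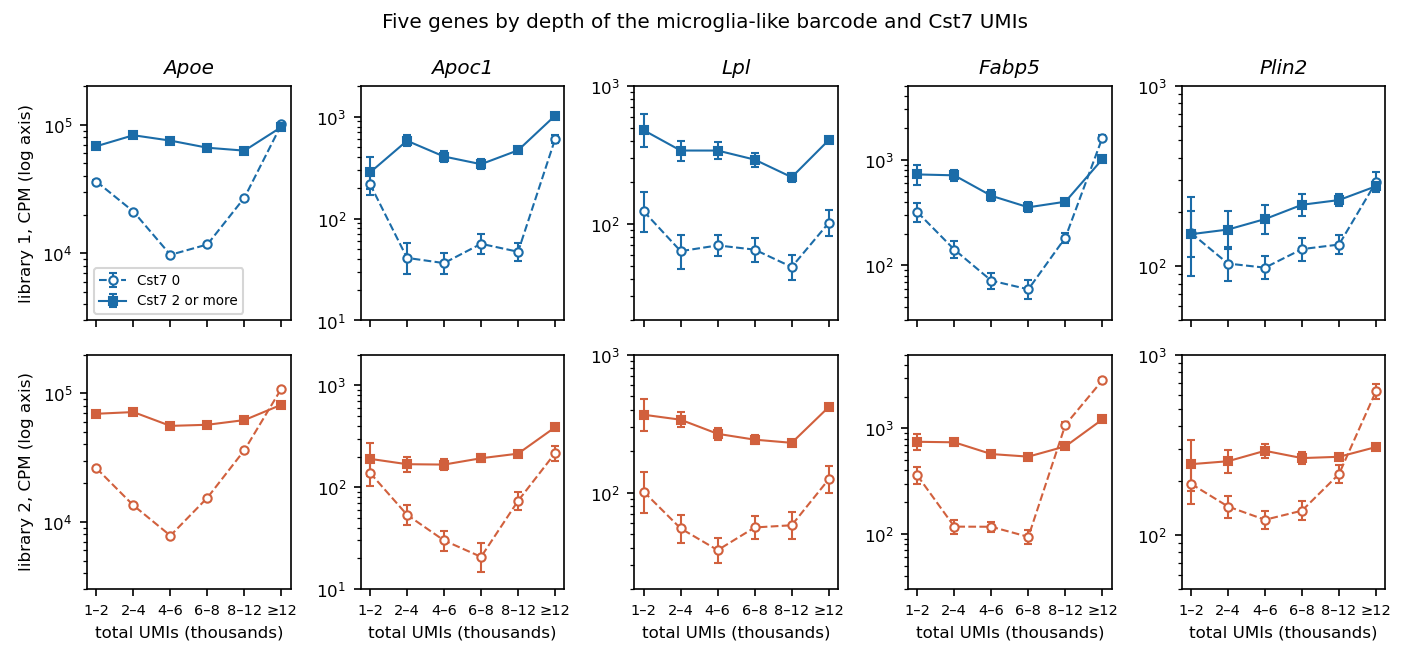
Apoe, Apoc1, Lpl, Fabp5 and Plin2 in microglia-like barcodes that passed no other gate (CPM on a log axis) by total UMIs of the barcode, for library 1 (top) and library 2 (bottom), with open circles and dashed lines for Cst7 at 0, filled squares and solid lines for Cst7 at 2 or more, and bars for exact 95% Poisson intervals. The lines of Apoe, Fabp5 and Plin2 meet or cross by the deepest bin, where 53 and 41 cells have no Cst7, while those of Lpl stay apart in every bin.

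The deep cells without Cst7 also differed in markers. Ms4a7, a membrane gene of border-associated and monocyte-derived macrophages, was 293 CPM (257 to 332) and 474 CPM (424 to 529) in them, against 75.5 and 60.1 CPM in the deep cells with Cst7 and 26.0 and 34.8 CPM in the shallower cells without it. The homeostatic microglial gene Tmem119 was 253 and 123 CPM in them, against 154 and 133 CPM, and 670 and 642 CPM in the shallower cells without Cst7. The 7 border-associated macrophage markers together, 5 of them detected, came to 352 and 550 CPM in the deep cells without Cst7. In those with it they came to 99.2 and 77.7 CPM, and Ms4a7 made up most of each sum. Pf4 was 32.0 and 50.6 CPM without against 22.5 and 16.2 CPM with Cst7. F13a1 was 22.5 and 14.9 against 0.356 and 0.744 CPM, and Mrc1 2.37 and 5.95 against 0.593 and 0.421 CPM. In library 1 the intervals of Pf4 and of Mrc1 overlapped between the deep groups. Lyve1 and Cd163, both in the marker list of the border-associated macrophage gate, were at 0 in all these groups. Barcodes that passed that gate had been left out here, so low levels of its markers are partly set by the filter. They cannot show whether the deep cells are macrophages. The 6 monocyte markers together came to 45.1 and 87.7 CPM against 28.6 and 37.3 CPM, but they did not move alike. Ly6c2 was lower in the deep cells without Cst7, at 1.19 and 7.44 against 7.23 and 9.998 CPM. Plac8 was lower too, at 2.37 and 2.97 against 4.62 and 9.58 CPM. The intervals of both genes overlapped in each library, so these directions rest on few UMIs. Vcan was higher in both libraries with intervals apart. Ccr2 was higher with intervals apart in library 2 (14.9 against 1.23 CPM), and in library 1 they overlapped (0.287 to 8.57 against 0.284 to 1.09 CPM). Chil3 was higher in library 1 (11.9 against 0.0593 CPM) and at 0 in library 2. Ms4a4c was higher in library 2 (50.6 against 14.5 CPM) and close in library 1. The part of these markers in the values of the deep cells was not tested.

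The other genes of lipid transport were taken from a list of 58, of which 32 reached 10 CPM in a group of the 3 libraries together. Of these, 6 were at least 2-fold higher with Cst7, 3 lower and 23 within 2-fold, with a median log2 ratio of -0.29 against -0.37 for all genes. Among the 6, Fabp3 and Olr1 reached 10 CPM only in the cells with Cst7 (90.5 and 16.9 CPM, against 8.83 and 1.68 CPM). They entered the count only through the group where they were high, and so did Olr1 within library 1. Within library 1, 4 of 31 were higher and 1 lower, with a median of 0.06, and within library 2, 4 of 31 were higher and 2 lower, with a median of -0.02. The shares over all genes were 1.56% higher and 5.97% lower for the libraries together, 0.97% and 2.9% in library 1, and 1.14% and 3.38% in library 2, and the counts of lower genes were near them. Apoc4, which lies beyond Apoc1 in the same gene cluster, went from 33.8 to 211 CPM in library 1 and from 15.0 to 99.9 CPM in library 2. The fatty acid binding protein gene Fabp3 went from 13.4 to 78.6 and from 15.6 to 96.5 CPM, a larger ratio than that of its relative Fabp5, and Fabp4 and Fabp7 were below 10 CPM. Lrpap1, the chaperone that keeps Lrp1 free of ligand on its way to the surface, went from 111 to 253 and from 118 to 289 CPM. Olr1, a scavenger receptor for oxidized lipoprotein, passed 2-fold on CPM + 10 within library 1 (3.76 and 21.8 CPM). Within library 2 (2.90 and 14.5 CPM) its ratio was 1.90 on CPM + 10 and 5.02 (3.45 to 7.62) on CPM, so the call differed more than the levels. Tyrobp, the signalling partner of Trem2, passed 2-fold within library 2 (2718 and 5553 CPM) and not within library 1 (2741 and 5152 CPM).

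Other receptors stayed within 2-fold or were low. Trem2, a lipid-sensing receptor, went from 2220 to 3265 CPM in library 1 and from 2272 to 3425 CPM in library 2, 1.47-fold (1.45 to 1.49) and 1.51-fold (1.49 to 1.53), and Vldlr and Lrp8 were at 9.10 CPM or less in every group of both libraries. Plin3 was 22.2 and 25.1 CPM in library 1, and Plin1 and Plin4 were under 10 CPM. The cholesterol exporter gene Abca1 was 221 and 248 CPM in library 1 and 189 and 211 CPM in library 2. On the lower side Lpcat2, a phospholipid remodelling enzyme, was past 2-fold in both libraries, at 399 CPM without and 186 CPM with Cst7 in library 2, and Mgll, which splits monoglycerides, was past it in library 2 alone, at 33.4 and 10.4 CPM, with 29.2 and 11.3 CPM in library 1. Npc2, which moves cholesterol out of lysosomes, and Pltp, the phospholipid transfer protein, passed 2-fold only with the 3 libraries together (848 and 1931 CPM, and 46.8 and 11.1 CPM, without and with Cst7).

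**Figure D5:**
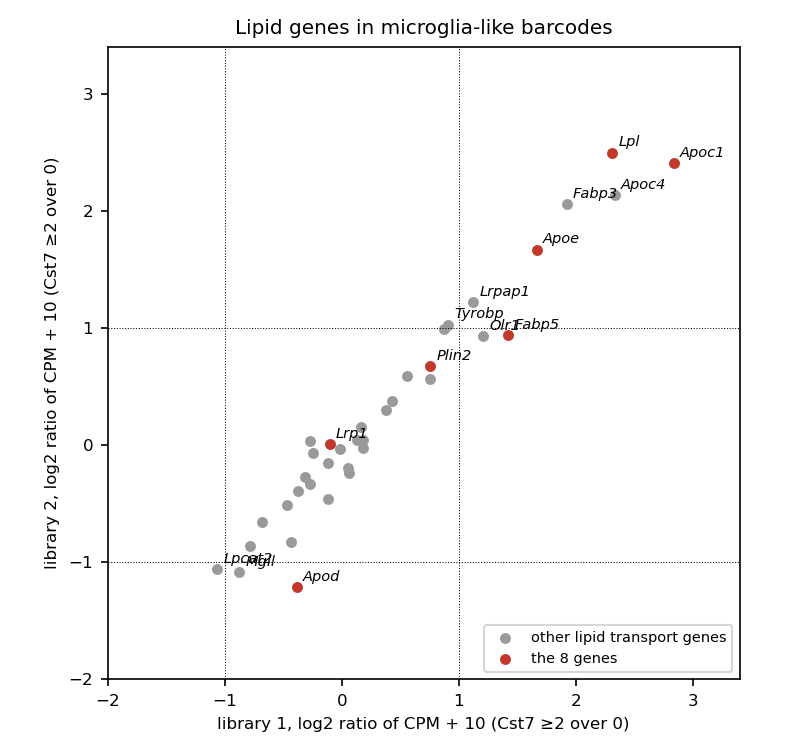
Log2 ratio of CPM + 10 in microglia-like barcodes with Cst7 at 2 or more over Cst7 at 0, library 1 against library 2, for 7 of the 8 genes (red, Clu not compared) and the other lipid transport genes with 10 CPM or more in both libraries (grey), with dotted lines at 2-fold. Apoc1, Lpl and Apoe lie past 2-fold in both libraries beside Apoc4, Fabp3 and Lrpap1, Lrp1 lies near 0, and Apod is lower in library 2 than in library 1.

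Apod, Apoe and Clu varied within 2 further classes. Mature oligodendrocyte-like cells were split by Klk6, a protease gene, and Il33, a cytokine gene, both known to mark different oligodendrocytes. The 699 cells with Klk6 at 2 or more and Il33 at 0 had Apod at 12436 CPM (12352 to 12520), and the 4887 cells with Il33 at 2 or more and Klk6 at 0 had 3635 CPM (3615 to 3656). In libraries 1, 2 and 3 the values were 10967 against 3755, 10723 against 3445, and 14704 against 3731 CPM, so the order held in each. Apoe ran the other way, at 2058 against 5936, 2381 against 6028 and 285 against 1947 CPM, and Fabp5 differed less, at 868 against 990 CPM over all. The Klk6 cells were deeper, with a median of 9700 against 6408 UMIs. Astrocyte-like cells split by Agt, an angiotensinogen gene of some astrocytes, had Clu at 5379 CPM with Agt at 0 (140 cells) and 4885 CPM with Agt at 2 or more (121 cells). The libraries differed more than these groups: with Agt at 2 or more, Clu was 2686, 2296 and 8190 CPM in libraries 1, 2 and 3, and with Agt at 0 it was 2548 and 6556 CPM in libraries 2 and 3. Library 3 gave 94 of the 140 cells and 32 of the 121, and within it the order of the groups was reversed. Lrp1 was 377 CPM with and 197 CPM without Agt, with 431 against 162 CPM in library 2 and 246 against 217 CPM in library 3. These splits were chosen after values of the genes had been seen.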

How the data were processed

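The authors sequenced 1 Chromium 3' library per condition and processed the reads with Cell Ranger 3.1.0, STAR and Seurat 3.1.1 on mm10, per the labels and the submitters' processing notes. They deposited raw UMI counts per gene and barcode, with the 3 libraries pooled in 1 matrix. Reads were down-sampled to a like depth across libraries, which limits how far depth can differ between them, and 110 barcode sequences occurred in more than 1 library.

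Counts were summed over barcodes and divided by total UMIs (CPM) with Python 3.11.15, NumPy 2.4.6, SciPy 1.17.1 and pandas 2.3.3. Cell classes needed 0.2% of UMIs and 3 genes from a marker list, microglia 0.5% in C1qa, C1qb and C1qc, and a class value at least 20 barcodes. Where lists overlap, border-associated macrophages took precedence over microglia, T cells over monocytes, smooth muscle cells over pericytes and committed precursors over precursors. No doublet caller was run. The gate thresholds were set after the marker distributions were seen, and the values by depth bin were added after the data were seen. Cells are not replicates and each condition had 1 library, so no p-value was computed. Genes were compared on CPM + 10 where a group reached 10 CPM, and Cst7 itself was left out. Intervals are exact and cover counting error only. The ratio, its calls and its interval were tried on simulated Poisson counts with known ratios. Those counts lack the spread between cells found here, so the trial checks the calculation only. Depth was matched in 6 bins of total UMIs.

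The 8 genes, the marker lists and the lipid list were chosen with earlier results of these data known. Named genes were the 8, Cst7 and the gate markers, the lipid list genes past 2-fold or related to one of the 8, and for each of the 8 the 3 genes most like it across classes. Klk6, Il33 and Agt, and Abca1 within the microglia, were added after their values were seen. Alternatives were other cell filters, gates, Cst7 limits, weights, pseudocounts and depths, and each library left out. Gene positions are from the GENCODE M21 annotation of GRCm38, and start-site windows from RefSeq (GRCm38.p6). Some genes of the marker and lipid lists are not reported here.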

Additional observations from a re-analysis of the deposited data

How the results depend on the processing

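With the 3 libraries together, 5 of the 8 genes were at least 2-fold higher in microglia-like cells with Cst7, and the count was 4 or 5 with each library left out in turn. It was 3 when cells were matched on total UMIs, 3 in library 2 alone, and 2 in each of libraries 1 and 2 matched on total UMIs. Apoc1 and Lpl stayed past 2-fold in all 22 alternatives, Apoe in 20, Fabp5 in 18 and Plin2 in 14. Where the 3 libraries are pooled, the Cst7 groups cannot be told apart from the libraries, so these tallies are no measure within a library. Within single libraries Plin2 was within 2-fold in both library 1 and library 2, and Fabp5 in library 2. Matching on total UMIs without barcodes of other gates was not among the 22. Apoe was then 1.31 and 1.12 in libraries 1 and 2, while Apoc1 and Lpl stayed past 2-fold. The deepest bin, with 53 and 41 cells without Cst7, held a large part of the weight in these ratios. Fabp5 reversed, from a log2 ratio of 1.86 to -0.11 and -0.35, when libraries 1 and 2 were each matched on total UMIs. The cause was not tested. The count of lower genes (1, Apod) was 0 in library 1 alone, 0 in libraries 1 and 2 without barcodes that passed another gate, 0 to 1 with a library left out, and 2 with a pseudocount of 1 CPM, when Clu joined.

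Among the other lipid genes the count of higher genes, 6 in all, was 3 in library 1 matched on total UMIs and 3 in library 2 without barcodes of other gates, and 4 to 6 with a library left out. The count of lower genes, 3 in all, was 5 with a pseudocount of 1 CPM, 1 in library 1 alone with or without barcodes of other gates, 0 in library 1 matched on total UMIs, and 2 to 4 with a library left out. All 8 genes kept their highest class under 6 alternatives, 7 when barcodes of several gates were kept, and 5 to 6 with a library left out, where fibroblast-like cells fell under 20 barcodes without library 2 or without library 3 and Apod and Lrp1 passed to mature oligodendrocyte-like and oligodendrocyte precursor-like cells. Without library 3 microglia-like cells led in Apoe at 67641 CPM. With libraries weighted equally 6 genes kept it. Over all genes, 119 were higher and 455 lower. These counts were 194 and 1320 with a pseudocount of 1 CPM, 74 and 201 without library 3, 69 and 206 in library 1 alone, 38 and 128 in library 1 matched on total UMIs, and 49 and 421 in library 2 matched on total UMIs. The alternatives on single libraries, on libraries weighted equally and most of those for the other lipid genes were added after the data were seen. No paired analysis was possible because each condition had 1 library and the suffixes are not paired with conditions, and no test was run. Depth limits Clu, at under 10 CPM in most microglia-like groups, and classes of 21 to 39 cells.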
